A study of Mus musculus with 7 samples.

Results

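The snoRNA host genes described here are 9 non-coding genes, Snhg1, Snhg3, Snhg4, Snhg6, Snhg8, Snhg12, Gas5, Dancr and Epb41l4aos, among the 32286 features counted in mouse thymocytes. They were taken by name, with no threshold on a measured value. All 9 carry the host tag of the GENCODE annotation. Their levels were read in thymocyte barcodes, which hold at most 1 UMI (unique molecular identifier, a tag on a single transcript molecule) of the B cell genes Cd79a, Cd79b and Ms4a1 together, and were compared with those in B cells of the same library.

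A snoRNA host gene is transcribed and spliced, its introns are trimmed into small nucleolar RNAs, and the spliced exons are left as a long non-coding RNA. SnoRNAs of the C/D box kind guide methylation of ribosomal RNA and those of the H/ACA box kind guide its pseudouridylation or take part in its cleavage. The spliced RNA of many hosts is held down by nonsense-mediated decay while translation runs, and many hosts start with the pyrimidine tract of translation-machinery mRNAs, so that the spliced RNA and the snoRNAs of 1 gene can differ in level. The libraries here prime on poly(A) tails, so they measure the host RNA and not the snoRNAs.

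Thymocytes were sorted by surface markers into 7 groups with 1 library each. C57BL/6 WT mice of 6 to 8 weeks gave 5 libraries from pooled thymi of both sexes, first depleted of CD4+ and CD8+ cells. DN3a cells precede selection on a T cell receptor, DN3b γδ− and DN4 γδ− cells have passed β selection, DN3b γδ+ cells bear a newly expressed γδ TCR, and DN4 γδ+ cells are later immature γδ T cells. Libraries DN3 γδ− and DN3 γδint came from thymi, without bead depletion, of mice with the labelled genotype Lat-/-TCRd-H2BEGFP, also C57BL/6, which lack the signalling adaptor LAT and carry a fluorescent reporter at the gene for the TCR δ chain. The reporter is absent from the WT mice and bead depletion was done for the WT thymi alone. Neither can be told apart from the loss of LAT in WT against Lat-KO comparisons. No age was given for the Lat-KO mice. Cells marked γδint had intermediate γδ TCR at the surface. The 500 spiked B cells of each library came from spleen.

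The 7 libraries held 90016 barcodes and between 49407750 and 375688164 UMIs each. Of the 79076 barcodes that passed the quality filter, 71081 were thymocyte barcodes, from 5274 in Lat-KO DN3 γδint to 18515 in WT DN3b γδ−, with median UMIs from 5737 to 18506. T cell markers stood at 3334 to 11210 CPM (UMIs of a gene or list over all UMIs of the class in a library, brought to a common total) in them. B cell markers stood at 114 to 282 CPM, myeloid markers at 97.5 to 188 CPM and NK markers at or below 0.931 CPM in every library, and erythroid markers were between 0.149 CPM in WT DN3a and 170 CPM in WT DN4 γδ−. Plasmacytoid markers ran from 120 to 556 CPM and thymic epithelial markers from 26.5 to 176 CPM, both lists high in WT DN3a and in the Lat-KO libraries, and their part in the levels below was not tested. Across libraries 925 barcode sequences were shared, 18 to 93 between any 2.

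Lat-KO DN3 γδint stood apart. Genes with Rpl or Rps symbols, mostly ribosomal-protein genes, took 17.2% of its thymocyte UMIs and 18.4% of its strict B cell UMIs (defined next), against at least 27.1% and at least 29.8% in the other 6 libraries. Its host gene values are therefore given with and without it. With 1 library per group no difference between groups was tested, and all 95% intervals cover counting error only.

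The B cell check had a limit of its own. A barcode was taken as a B cell when the UMIs of 10 B cell markers reached 10 and were no fewer than 2 times those of 8 T cell markers, which gave 1462 barcodes. T cell markers in them stood at 13.3% of the thymocyte level in WT DN3a but at 42.9% in WT DN3b γδ− and 39.9% in WT DN3b γδ+. A stricter class, added after this was seen, allowed at most 2 T cell marker UMIs, which left 60 to 253 barcodes a library and lowered those values to 3.52%, 10.4% and 10.5%.

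The transcription start is shown for 6 hosts, because a pyrimidine tract there marks translation-machinery transcripts. The windows run from 20 bases before the RefSeq start (GRCm38.p6) to 30 bases from it on, 5′ to 3′ on the gene's strand, with the longest run of C and T (either letter, this strand alone) in capitals.
Snhg1: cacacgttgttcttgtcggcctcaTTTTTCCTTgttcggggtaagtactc
Snhg3: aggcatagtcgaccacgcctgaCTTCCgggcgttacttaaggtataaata
Snhg8: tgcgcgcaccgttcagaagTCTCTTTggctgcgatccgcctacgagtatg
Snhg12: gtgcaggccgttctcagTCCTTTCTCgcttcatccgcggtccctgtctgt
Gas5, upstream start: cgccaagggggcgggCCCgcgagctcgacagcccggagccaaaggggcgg
Gas5, downstream start: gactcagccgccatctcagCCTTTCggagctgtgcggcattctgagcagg
Dancr: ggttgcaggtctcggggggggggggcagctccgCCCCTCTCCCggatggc

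A run of at least 7 was found in 4 of these 7 windows, in 28.6% of all 32851 RefSeq windows of the same length and in 49 of 91 windows of ribosomal-protein genes. In Snhg8 and Snhg12 it spans the start, in Snhg1 it begins at base 5 and in Dancr at base 14 of the transcript. The downstream start of Gas5 has a run of 6 and Snhg3 one of 5. The windows lie at chr19:8723467-8723516 (plus strand) for Snhg1, chr4:132353657-132353706 (minus) for Snhg3, chr3:123508307-123508356 (minus) for Snhg8 and chr4:132308658-132308707 (plus) for Snhg12. Those of Gas5 lie at chr1:161034581-161034630 and chr1:161035146-161035195 (plus), and that of Dancr at chr5:74093040-74093089 (plus). A match of letters is a description and was not tested as a site.

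By CPM over all barcodes the hosts went 2 ways in WT thymocytes. Gas5, Snhg1, Dancr, Snhg12 and Epb41l4aos were highest in WT DN3a and lower in every WT library after selection, whereas Snhg3 and Snhg4 were highest in the 2 β-selected libraries. Snhg6 was highest in WT DN4 γδ− and Snhg8 in WT DN4 γδ+. The first pattern depends on the scale. In WT DN3b γδ− over WT DN3a, Snhg12 and Dancr stood at 0.25 and 0.03 under TMM scaling. Gas5 and Snhg1 stood at 0.27 and 0.63 there in the low cycling class defined later. The 9 together stood at 2157 CPM (2144 to 2169) in WT DN3a. WT DN3b γδ− had 1738 CPM and WT DN4 γδ− 1922 CPM. WT DN3b γδ+ had 1296 CPM and WT DN4 γδ+ 1420 CPM. Of the Lat-KO libraries γδ− had 1696 CPM and γδint 742 CPM (733 to 750). By CPM the lowest WT level was that of the newly selected γδ cells, while under TMM scaling and in the high cycling class defined later WT DN4 γδ+ stood below it (-0.17 and -0.12 against WT DN3b γδ+). The lowest of all, that of Lat-KO DN3 γδint, coincides with the library that stands apart. Strict B cells stood at 1139, 1144, 1498, 1186, 1047, 896 and 480 CPM in the same order of libraries, so they too were lower in the Lat-KO libraries, and they were highest in WT DN4 γδ−.

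**Figure D1:**
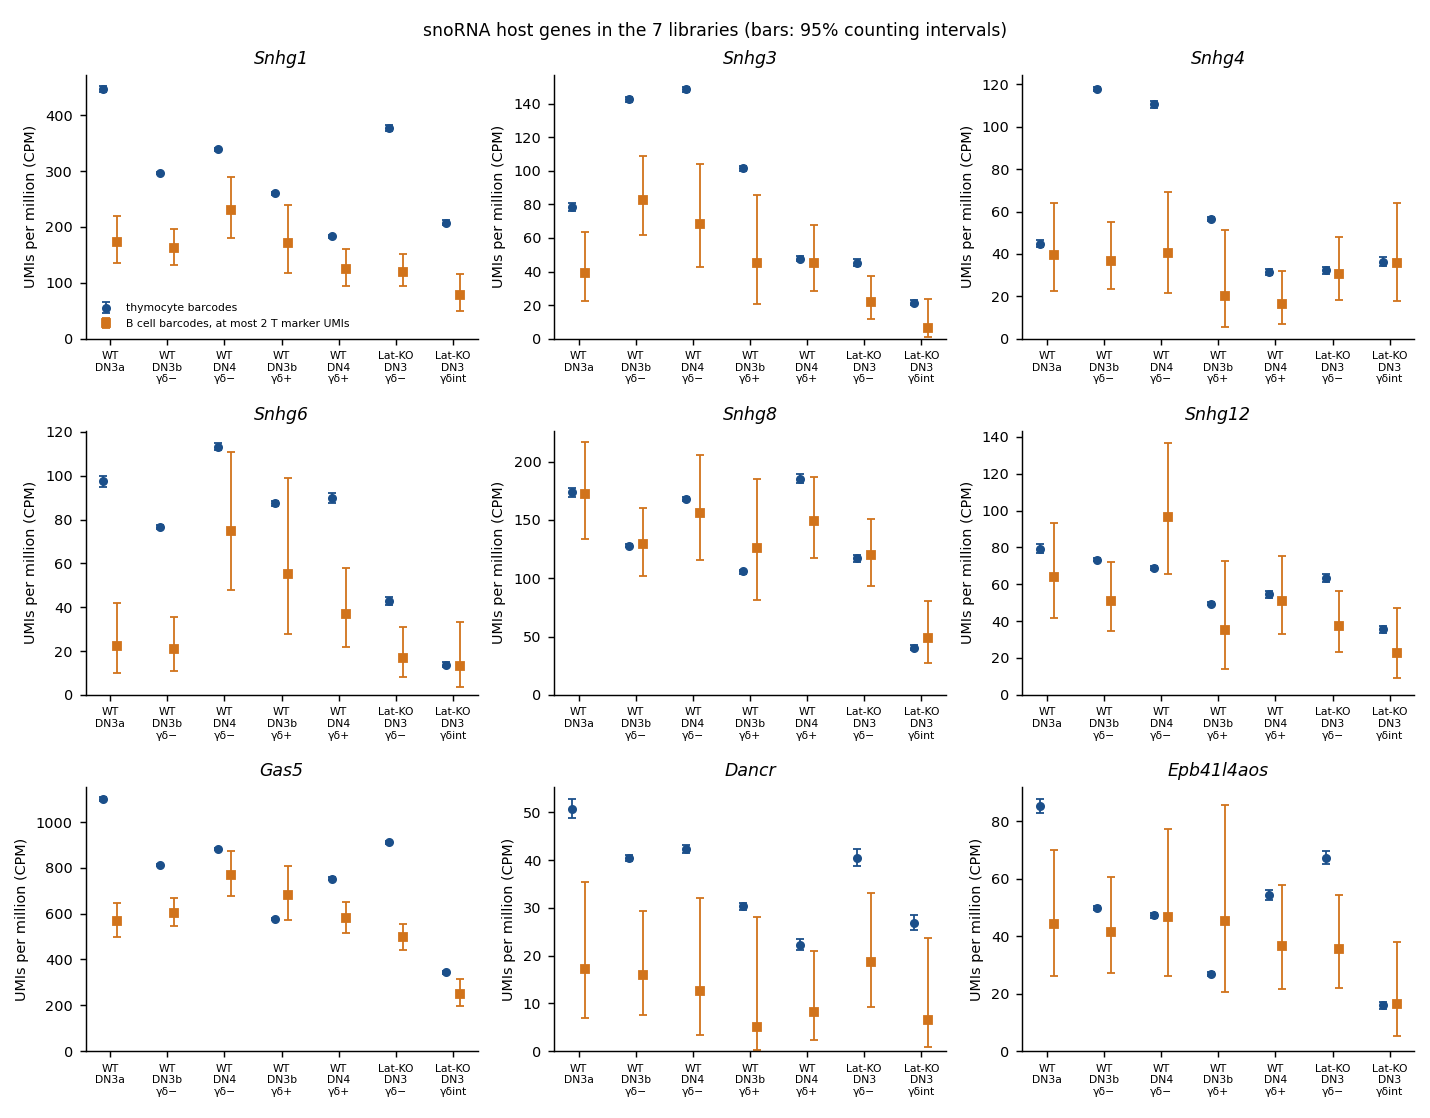
Level of each host gene (CPM, axis from 0) in the 7 libraries, as circles for thymocyte barcodes and squares for B cell barcodes with at most 2 T cell marker UMIs, with 95% counting intervals as bars. Gas5 in thymocytes runs from 1099 CPM in WT DN3a to 344 CPM in Lat-KO DN3 γδint, and Snhg4 peaks at 118 CPM in WT DN3b γδ−.

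The hosts of C/D box snoRNAs come first. Gas5 (ENSMUSG00000053332, mm10 chromosome 1, 161034422 to 161038539, plus strand) encloses 10 genes that GENCODE types as snoRNA, among them Snord47, Snord78, Snord80 and the microRNA-named Mir5117, and is known to accumulate in growth-arrested cells. It stood at 1099 CPM in WT DN3a. The β-selected libraries DN3b γδ− and DN4 γδ− had 812 and 884 CPM, the γδ+ libraries of those stages had 577 and 752 CPM, and the Lat-KO libraries γδ− and γδint had 911 and 344 CPM. UMIs count molecules at their 3′ end and were not divided by length, and on that scale Gas5 took 50.9% of the UMIs of the 9 genes in WT DN3a. Without Lat-KO DN3 γδint the highest level of Gas5 was 1.90 times the lowest in thymocytes and 1.25 times in B cells, and strict B cells ran from 496 CPM in Lat-KO DN3 γδ− to 771 CPM in WT DN4 γδ−. Zbtb37 overlaps it on the other strand.

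Snhg1 (ENSMUSG00000108414, mm10 chromosome 19, 8723475 to 8726443, plus strand) encloses 8 genes of that type, among them Snord22. It stood at 448 CPM in WT DN3a. After β selection it stood at 297 (DN3b γδ−) and 339 CPM (DN4 γδ−), in γδ+ cells at 261 (DN3b) and 183 CPM (DN4), and without LAT at 377 (γδ−) and 207 CPM (γδint). Unlike Gas5 it was lowest in WT DN4 γδ+, and no 2 neighbours in its order of libraries lay within counting error.

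Snhg6 (ENSMUSG00000098234, mm10 chromosome 1, 9941959 to 9944118, minus strand) encloses Snord87 and overlaps Mcmdc2 on the other strand. It stood at 97.7 CPM in WT DN3a. The β-selected libraries DN3b γδ− and DN4 γδ− had 76.7 and 113 CPM, the γδ+ libraries of those stages had 87.4 and 90.0 CPM, and the Lat-KO libraries γδ− and γδint had 42.8 and 13.7 CPM. Its WT levels lay closest together of the 9, the highest being 1.48 times the lowest, and both Lat-KO libraries lay below all 5 WT libraries.

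Snhg3 and Snhg4 host H/ACA box snoRNAs and had the other pattern. Snhg3 (ENSMUSG00000085241, mm10 chromosome 4, 132348014 to 132353686, minus strand) encloses Snora73a and Snora73b, copies of a snoRNA that takes part in cleavage of the ribosomal RNA precursor. It stood at 78.5 CPM in WT DN3a. After β selection it stood at 143 (DN3b γδ−) and 149 CPM (DN4 γδ−), in γδ+ cells at 102 (DN3b) and 47.6 CPM (DN4), and without LAT at 45.3 (γδ−) and 21.5 CPM (γδint). WT DN4 γδ+ and Lat-KO DN3 γδ− did not differ beyond counting error. Snhg3 overlaps the gene of Rcc1, a chromatin-bound exchange factor for Ran, on the same strand, so its UMIs are uncertain to the extent that reads can be shared.

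Snhg4 (ENSMUSG00000117869, mm10 chromosome 18, 35553371 to 35558316, plus strand) encloses Snora74a and Mir1949, which has a microRNA name but is typed as snoRNA. It stood at 44.9 CPM in WT DN3a. The β-selected libraries DN3b γδ− and DN4 γδ− had 118 and 111 CPM, the γδ+ libraries of those stages had 56.3 and 31.3 CPM, and the Lat-KO libraries γδ− and γδint had 32.2 and 36.4 CPM. The lowest levels, in WT DN4 γδ+ and Lat-KO DN3 γδ−, did not differ beyond counting error, and Snhg4 was the one host that was not lower in Lat-KO DN3 γδint than in Lat-KO DN3 γδ− by CPM. A longer locus with the same symbol stood at or below 0.212 CPM everywhere and was not counted in, and Gm28285 and Gm49347 overlap Snhg4 on its own strand. In barcodes thinned to 4000 UMIs, Snhg4 was detected in 13.7% of WT DN3a barcodes (12.9 to 14.5, exact Clopper-Pearson interval), 35.6% of WT DN3b γδ− barcodes (34.9 to 36.3) and 19.6% of WT DN3b γδ+ barcodes (18.8 to 20.3). Unthinned the shares were 24.6%, 74.8% and 47.4%. No cell type in these libraries is known to lack these genes, so no background share could be set.

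Snhg8 and Snhg12 host H/ACA box snoRNAs as well. Snhg8 (ENSMUSG00000104960, mm10 chromosome 3, 123507552 to 123508404, minus strand) encloses Snora24 and stood at 174 CPM in WT DN3a. After β selection it stood at 128 (DN3b γδ−) and 168 CPM (DN4 γδ−), in γδ+ cells at 106 (DN3b) and 185 CPM (DN4), and without LAT at 117 (γδ−) and 40.2 CPM (γδint). By CPM it was the one host highest in WT DN4 γδ+. Under TMM scaling WT DN3b γδ+ stood at -0.31 against WT DN3b γδ−, and the steps to DN4 at 0.50 (γδ+) and 0.40 (γδ−). By that scaling WT DN4 γδ− was therefore above WT DN4 γδ+. Snhg12 (ENSMUSG00000086290, mm10 chromosome 4, 132308623 to 132311024, plus strand) encloses 5 snoRNA genes of both box kinds, among them Snora44, Snora61 and Snord99. It stood at 79.4 CPM in WT DN3a. The β-selected libraries DN3b γδ− and DN4 γδ− had 73.4 and 68.8 CPM, the γδ+ libraries of those stages had 49.5 and 54.6 CPM, and the Lat-KO libraries γδ− and γδint had 63.2 and 35.5 CPM. It followed Gas5 in being lowest in WT DN3b γδ+ among the WT libraries by CPM, within a range of 1.60 times, but WT DN4 γδ+ was lower than it under TMM scaling (-0.16) and within the high cycling class (-0.16), and in the low class stood at -0.09 (-0.47 to 0.31) against it.

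Dancr (ENSMUSG00000106943, mm10 chromosome 5, 74093060 to 74095406, plus strand), known for keeping progenitor cells undifferentiated, encloses Snora26 and overlaps Gm43416 on the other strand. It was the lowest host on average and stood at 50.8 CPM in WT DN3a. After β selection it stood at 40.5 (DN3b γδ−) and 42.4 CPM (DN4 γδ−), in γδ+ cells at 30.4 (DN3b) and 22.2 CPM (DN4), and without LAT at 40.5 (γδ−) and 26.9 CPM (γδint). Lat-KO DN3 γδ− lay within counting error of both β-selected WT libraries. Epb41l4aos (ENSMUSG00000087590, mm10 chromosome 18, 33794892 to 33795986, plus strand) encloses the snoRNA gene Gm23639 and stood at 85.4 CPM in WT DN3a. The β-selected libraries DN3b γδ− and DN4 γδ− had 49.7 and 47.3 CPM, the γδ+ libraries of those stages had 26.8 and 54.5 CPM, and the Lat-KO libraries γδ− and γδint had 67.3 and 15.9 CPM. It had the widest swing of the Gas5-like hosts, 3.18 times between WT DN3a and WT DN3b γδ+. Its B cell levels differed by at most 1.19 times over the 6 libraries without Lat-KO DN3 γδint, on 26 to 62 UMIs a library. Such narrow B cell ranges were not general. Over the same libraries the range was wider in B cells than in thymocytes for Snhg3 (3.89 against 3.28 times) and Snhg4 (3.85 against 3.76). The same held for Snhg6 (3.25 against 2.65), Dancr (2.55 against 2.28) and Snhg12 (1.98 against 1.60).

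The question of β selection is answered by WT DN3b γδ− over WT DN3a. Snhg4 was 2.63-fold higher (log2 ratio 1.39, 1.33 to 1.45) and Snhg3 1.82-fold higher (0.86, 0.82 to 0.91), and the other 7 were lower, from -0.11 for Snhg12 to -0.78 for Epb41l4aos. Snhg4 was the 1 host at least 2-fold higher, a size reached upward by 9.87% of the 9100 genes tested, those with a mean of at least 5 CPM. None of the 9 was at least 2-fold lower, against 16.8% of tested genes. TMM scaling, which sets libraries by the bulk of their genes, adds 0.36 to every log2 ratio here. Under it Snhg12, Dancr and Snhg6 stood at 0.25, 0.03 and 0.01 and Gas5 at -0.07, while Snhg1 (-0.23), Epb41l4aos (-0.42) and Snhg8 (-0.08) remained below 0. The place among all genes does not move with scaling, and 64.5% of tested genes had a higher ratio than Gas5, 77.0% than Epb41l4aos, 12.3% than Snhg3 and 5.38% than Snhg4.

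In the B cells of these libraries Snhg4 was higher by 0.86 (0.20 to 1.57) and Snhg3 by 1.31 (0.63 to 2.05). In strict B cells Snhg4 differed by -0.10 (-1.08 to 0.92, 23 and 16 UMIs), and Snhg3 was still higher by 1.08 (0.24 to 1.98, 52 and 16 UMIs). The higher level of Snhg4 was therefore seen in thymocytes and not detectable in strict B cells, and that of Snhg3 was seen in both. Gas5 in strict B cells differed by 0.09 (-0.15 to 0.33) and Snhg1 by -0.10 (-0.55 to 0.36).

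**Figure D2:**
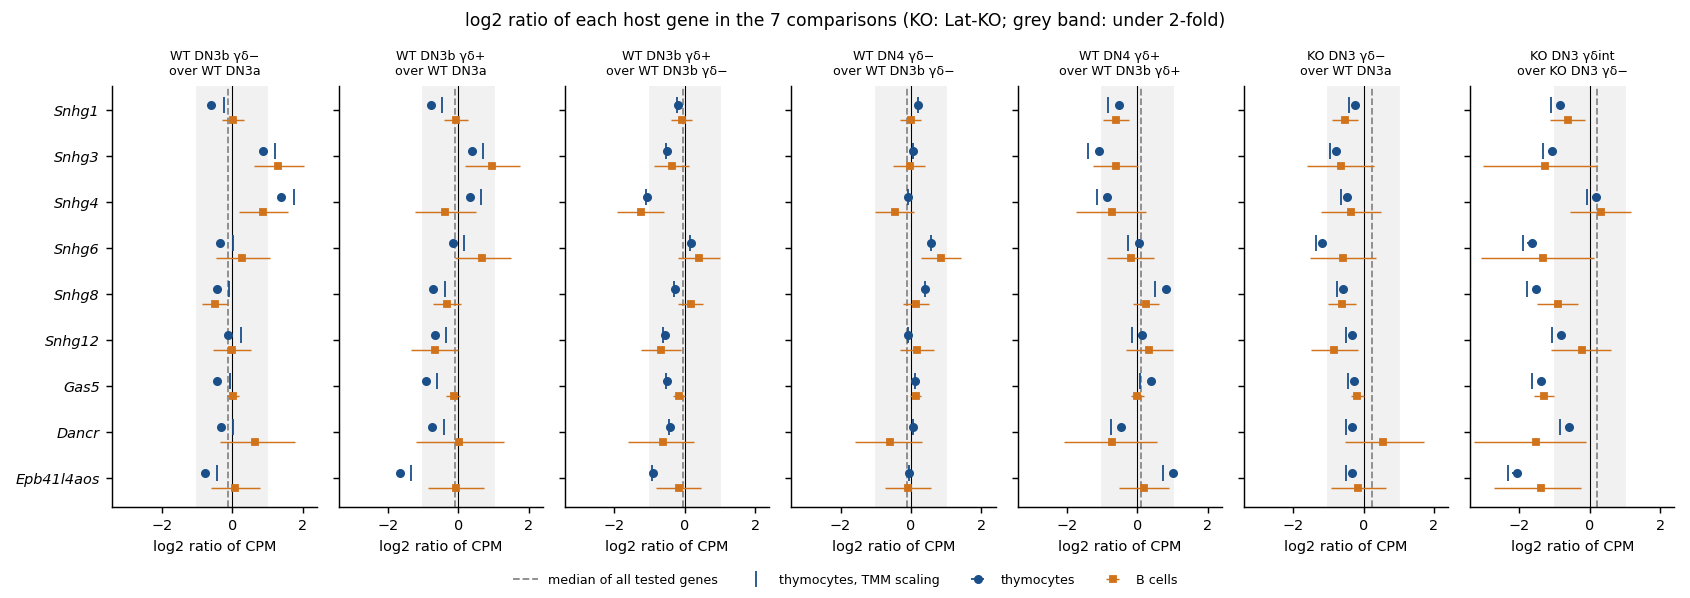
log2 ratio of CPM of each host gene in the 7 comparisons, with circles for thymocytes, vertical ticks for thymocytes under TMM scaling and squares for B cells, 95% counting intervals as bars, a dashed line at the median of all tested genes and a grey band under 2-fold. Snhg4 lies at 1.39 in WT DN3b γδ− over WT DN3a, and 8 of 9 circles lie below 0 in Lat-KO DN3 γδint over γδ−.

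Selection on a γδ TCR, WT DN3b γδ+ over WT DN3a, went with lower levels of the same 7 hosts, and WT DN3a is the lower term of both ratios. Epb41l4aos was 3.18-fold lower (log2 ratio -1.67, -1.73 to -1.61), Gas5 1.90-fold lower (-0.93, -0.94 to -0.92), Snhg1 stood at -0.78, Dancr at -0.74, Snhg8 at -0.71 and Snhg12 at -0.68. Snhg3 and Snhg4 were higher by 0.38 and 0.33 over all barcodes, which did not hold within the cycling classes described later. Snhg3 less its B cell ratio stood at -0.56, and at 0.17 less the strict B cell ratio, which rests on 9 and 16 UMIs. Epb41l4aos was the 1 host at least 2-fold lower, as were 15.6% of the 9100 tested genes, and no host was among the 10.2% at least 2-fold higher. TMM scaling adds 0.32, which turned Snhg6 from -0.16 to 0.16 and left the other directions as they were. Strict B cells differed by 0.06 (-0.17 to 0.29) for the sum of the 9, 0.27 (-0.05 to 0.58) for Gas5 and 0.03 (-1.30 to 1.26) for Epb41l4aos, so the lower Gas5 of thymocytes was not seen there. Snhg12 was lower in B cells too, at -0.68 (-1.35 to -0.01), which leaves -0.01, or 0.18 less the strict B cell ratio (7 and 26 UMIs). Dancr turned to 1.03 less the strict B cell ratio, which rests on 1 and 7 UMIs.

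The selected lineages were compared directly in WT DN3b γδ+ over WT DN3b γδ−. Of the 9, 8 were lower in the γδ+ cells under CPM and under TMM scaling. Snhg4 stood at -1.06 (-1.10 to -1.03), Epb41l4aos at -0.89, Snhg12 at -0.57, Gas5 and Snhg3 each at -0.49, Dancr at -0.41, Snhg8 at -0.27 and Snhg1 at -0.19. Snhg6 alone was higher, by 0.19. Snhg4 was the 1 host at least 2-fold lower, with 2.93% of tested genes, and no host was among the 5.05% at least 2-fold higher. A higher ratio than that of Snhg4 was found in 97.4% of tested genes and than that of Gas5 in 86.5%. Snhg4 also stood at -1.23 (-1.92 to -0.58) in B cells and at -0.87 (-2.86 to 0.68) in strict B cells, where it rests on 4 and 23 UMIs. Gas5 in strict B cells stood at 0.18 (-0.12 to 0.46). Less the B cell ratio Snhg4 turned to 0.16, Snhg6 to -0.22, Snhg12 to 0.09 and Dancr to 0.22. Less the strict B cell ratio Snhg6 turned to -1.23, Snhg3 to 0.39 and Dancr to 1.25, the last on 1 and 10 UMIs. Snhg1, Snhg8, Gas5 and Epb41l4aos stayed below 0 less either ratio.

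From DN3b to DN4 the γδ− cells changed little. In WT DN4 γδ− over WT DN3b γδ−, Snhg6 was higher by 0.56, Snhg8 by 0.39, Snhg1 by 0.19 and Gas5 by 0.12, and the other 5 lay between -0.09 and 0.07. No host was among the 0.648% of tested genes at least 2-fold higher or the 1.54% at least 2-fold lower, yet 2.43% of tested genes alone exceeded Snhg6. Snhg6 was also higher in B cells (0.85, 0.29 to 1.41) and in strict B cells (1.85, 0.82 to 2.95), and the sum of the 9 was higher in strict B cells by 0.39 (0.22 to 0.56), more than the 0.14 of thymocytes.

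The γδ+ cells split the hosts. In WT DN4 γδ+ over WT DN3b γδ+, Snhg3 was 2.14-fold lower (-1.10, -1.15 to -1.05), Snhg4 stood at -0.85, Snhg1 at -0.51 and Dancr at -0.45, while Epb41l4aos was 2.03-fold higher (1.02, 0.96 to 1.08), Snhg8 stood at 0.81 and Gas5 at 0.38. Epb41l4aos was the 1 host at least 2-fold higher (11.1% of tested genes) and Snhg3 the 1 at least 2-fold lower (6.62%). TMM scaling subtracts 0.30, which left Epb41l4aos at 0.72, Snhg8 at 0.50 and Gas5 at 0.08 and turned Snhg12 (0.14) and Snhg6 (0.04) to -0.16 and -0.26. The 2 comparisons of this stage step share no library. Snhg1, Snhg3, Dancr and Epb41l4aos took opposite directions in them, under both scalings and in the high class of cycling barcodes described next, and that difference was not tested. How many of all tested genes did so was not counted. In the low class, which holds 81 to 109 barcodes in 3 of the 4 libraries, the opposite signs were gone: Snhg1 stood at -0.14 (-0.32 to 0.05), Snhg3 at -0.05 (-0.51 to 0.41), Dancr at -0.68 (-1.47 to 0.07) and Epb41l4aos at 0.60 (0.08 to 1.13) in the γδ− step, and at -0.80, -0.56, -1.10 and 0.53 in the γδ+ step.

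The libraries also differ in their levels of cell cycle genes, and barcodes with many and few UMIs of these could be set side by side within a library. Barcodes thinned to 4000 UMIs were put in a high class with at least 6 UMIs of 30 cycling genes and a low class with at most 2. Of such barcodes the high class took 15.8% in WT DN3a, 97.4% and 96.1% in the β-selected libraries DN3b and DN4, 95.3% and 23.5% in the γδ+ libraries of those stages, and 19.4% and 62.8% in the Lat-KO libraries γδ− and γδint. The threshold of 6 UMIs is loose. At least 15 UMIs were held by 1.83% in WT DN3a, 80.2% and 73.5% in those β-selected libraries, 70.5% and 14.1% in the γδ+ libraries, and 4.64% and 25.9% in the Lat-KO libraries. The classes are ranges of a score, and the low class held 108, 81 and 109 barcodes in the 3 libraries with the most cycling. B cell barcodes reached the high class too, 37 of 65 in WT DN3b γδ−, 21 of 43 in WT DN4 γδ− and 40 of 71 in WT DN3b γδ+, but 0 of 52 in WT DN3a, 4 of 74 in WT DN4 γδ+, and 6 of 67 and 4 of 37 in the Lat-KO libraries. The first 3 are the libraries whose B cell barcodes held the most T cell marker UMIs relative to thymocytes, and the part of thymocyte RNA in this was not tested.

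By CPM, within every one of the 7 libraries, Gas5, Epb41l4aos, Snhg1 and Snhg8 were lower in the high class than in the low class. No TMM scaling or median of all genes was set beside these class ratios, so the part of RNA composition in them was not tested. Gas5 differed by -0.48 (-0.51 to -0.44) in WT DN3a, by -0.86 and -0.62 in the β-selected libraries DN3b and DN4, by -0.47 and -0.65 in the γδ+ libraries of those stages, and by -0.27 and -0.31 in the Lat-KO libraries γδ− and γδint, each interval below 0. Epb41l4aos differed by -0.51 to -1.22 and Snhg1 by -0.10 to -1.30 over the 7 libraries, with every interval below 0. Snhg8 differed by -0.15 to -0.55, with an interval that held 0 in WT DN4 γδ−.

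Snhg4 was higher in the high class in each of the 7 libraries, from 0.24 to 0.65, with an interval above 0 in 5 of them. The same 2 classes gave 0.65 (0.51 to 0.80) in WT DN3a and 0.62 (0.44 to 0.80) in Lat-KO DN3 γδ−, where neither class is small. Snhg3 was higher by 0.18 to 0.86 in 6 libraries and stood at -0.01 (-0.42 to 0.44) in Lat-KO DN3 γδint. A high class of at least 15 UMIs, added after the data were seen, gave Gas5 from -0.42 to -0.91 and Epb41l4aos from -0.57 to -1.47, both below 0 in all 7 libraries. Snhg4 then ran from 0.05 to 0.70, but its interval held 0 in 4 of the 7 libraries. Depth per barcode moves with the class, with median UMIs of 7273 and 9786 in WT DN3a and of 6604 and 16179 in WT DN4 γδ+, and its part was not tested.

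**Figure D3:**
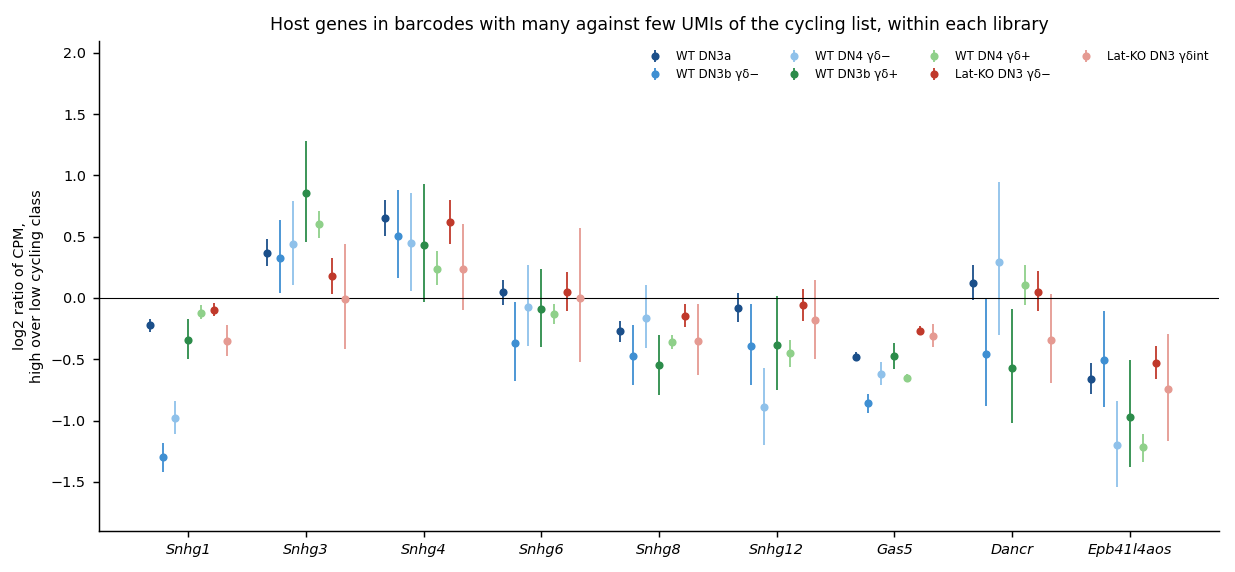
log2 ratio of CPM of each host gene in the high over the low cycling class within each library (one colour a library, bars are 95% counting intervals). All 7 points of Gas5 lie between -0.86 and -0.27 and all 7 of Snhg4 between 0.24 and 0.65.

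Between libraries but within 1 class, the order of the stages changed for some hosts. In the low class Gas5 was higher in WT DN3b γδ− than in WT DN3a (0.27, 0.19 to 0.36) and Snhg1 likewise (0.63, 0.51 to 0.75), whereas in the high class they stood at -0.11 and -0.44. Snhg4 was higher in WT DN3b γδ− in both classes, by 1.02 (0.64 to 1.38) and 0.88 (0.77 to 0.99). In WT DN3b γδ+ over WT DN3a, Gas5 stood at -0.62 in either class and Epb41l4aos at -0.93 (low) and -1.24 (high), while Snhg4, higher by 0.33 over all barcodes, stood at 0.04 (-0.47 to 0.51) in the low and -0.18 (-0.29 to -0.07) in the high class. Snhg3, higher by 0.38 over all barcodes, stood at -0.40 (-0.84 to 0.00) in the low and 0.08 (-0.01 to 0.17) in the high class. In WT DN4 γδ+ over WT DN3b γδ+, Gas5 stood at 0.18 in the low class and 0.01 in the high class, and Epb41l4aos at 0.53 and 0.28. By CPM the lower Gas5 of γδ-selected cells was present in both classes. That of WT DN3b γδ− was present in the high class alone, where its -0.11 is smaller than the 0.36 that TMM scaling adds to its ratio to WT DN3a over all barcodes. The low class of WT DN3b γδ− is small. In WT DN4 γδ− Gas5 was lower than in WT DN3a in neither class. It stood at 1347 against 1212 CPM in the low and 876 against 871 CPM in the high class.

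Loss of LAT, together with the reporter and the lack of bead depletion, was read from Lat-KO DN3 γδ− over WT DN3a. All 9 hosts were lower in Lat-KO DN3 γδ−, by CPM and under TMM scaling. Snhg6 was 2.28-fold lower (-1.19, -1.26 to -1.12), Snhg3 stood at -0.79, Snhg8 at -0.57 and Snhg4 at -0.48, and the rest lay between -0.25 for Snhg1 and -0.34 for Epb41l4aos. Snhg6 was the 1 host among the 0.923% of tested genes at least 2-fold lower, and no host was among the 3.38% at least 2-fold higher. Between 89.7% (Snhg1) and 99.3% (Snhg6) of tested genes had a higher ratio than each host. The B cells went the same way: the sum of the 9 stood at -0.33 (-0.47 to -0.19) in them and at -0.35 (-0.53 to -0.16) in strict B cells, as against -0.35 (-0.36 to -0.33) in thymocytes. Snhg6 in B cells stood at -0.58 (-1.53 to 0.36) and Gas5 at -0.18 (-0.37 to 0.01). In thymocytes over B cells this leaves -0.02 for the sum, -0.61 for Snhg6, -0.87 for Dancr and 0.04 for Snhg8. Snhg1 and Snhg12 turned in direction, to 0.28 and 0.50 less the B cell ratio and to 0.29 and 0.45 less the strict B cell ratio. Snhg3 stood at -0.14 less the B cell ratio and at 0.05 less the strict B cell ratio, which rests on 13 and 16 UMIs.

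The surface γδ TCR without LAT was read from Lat-KO DN3 γδint over γδ−. Of the 9, 8 were lower by CPM and 5 were at least 2-fold lower, as were 3.48% of tested genes. These were Epb41l4aos (-2.08, -2.21 to -1.96), Snhg6 (-1.65), Snhg8 (-1.54), Gas5 (-1.40, -1.43 to -1.38) and Snhg3 (-1.08). Snhg1 stood at -0.86, Snhg12 at -0.83 and Dancr at -0.59. Snhg4 stood at 0.18 (0.07 to 0.28) and at -0.07 under TMM scaling, and no host was among the 4.95% at least 2-fold higher.

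The B cells of the same libraries differed in the same direction. The sum of the 9 stood at -1.01 (-1.21 to -0.82) in B cells and -0.90 (-1.18 to -0.64) in strict B cells, against -1.19 in thymocytes. Gas5 stood at -1.29 (-1.58 to -1.01) in B cells, Snhg8 at -0.91 (-1.51 to -0.34) and Epb41l4aos at -1.40 (-2.72 to -0.26), and Snhg4 at 0.32 (-0.57 to 1.18). Thymocytes less B cells leave -0.18 for the sum and -0.11 for Gas5, but -0.68 for Epb41l4aos, -0.63 for Snhg8, -0.60 for Snhg12 and 0.94 for Dancr. Less strict B cells the sum stood at -0.29 and Gas5 at -0.42, and the strict B cell value of Gas5, -0.98 (-1.36 to -0.62), was nearer 0 than the thymocyte value. Less strict B cells Snhg8 stood at -0.25, Snhg12 at -0.13, Epb41l4aos at -0.96 and Dancr at 0.92. The ratios of Epb41l4aos rest on 8 and 35 UMIs in B cells and 5 and 21 in strict B cells. Those of Dancr rest on 5 and 24 UMIs and on 2 and 11. Most of the lower summed level was thus also measured in the spiked splenic B cells, and T cell markers in the strict B cells stood at 2.12% (γδ−) and 4.56% (γδint) of the thymocyte level.

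Genes with short transcripts, a property looked at after the data were seen, were lower in this comparison as well. Apart from genes with Rpl or Rps symbols and the 9 hosts, and among those also at a mean of at least 5 CPM in B cells, genes whose longest annotated transcript is under 500 nucleotides had a median log2 ratio of -1.73 in thymocytes and -1.45 in B cells (22 genes). From 500 to under 700 nucleotides the medians were -1.30 and -1.27 (81 genes), from 700 to under 1000 they were -0.32 and -0.27 (248 genes), and from 1000 to under 2000 they were 0.36 and 0.39 (1332 genes). Epb41l4aos (430 nucleotides), Snhg3 (581), Snhg8 (776) and Snhg6 (816) have the shortest longest transcripts of the 9. Snhg8 (-1.54) and Snhg6 (-1.65) lay below the median of -0.32 for the range of their longest transcripts. Their median transcripts, of 528 and 559 nucleotides, would place them in the range of 500 to under 700 nucleotides, where the median was -1.30. That range was set by the longest transcripts of the other genes, so such a placing compares unlike measures. Gas5 at 2556, Snhg1 at 2728, Snhg12 at 1538 and Dancr at 2347 nucleotides also lay below the medians for their lengths, although most annotated transcripts of Gas5 and Snhg1 are short, with medians of 629 and 602 nucleotides. The part of length in these ratios was not tested.

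**Figure D4:**
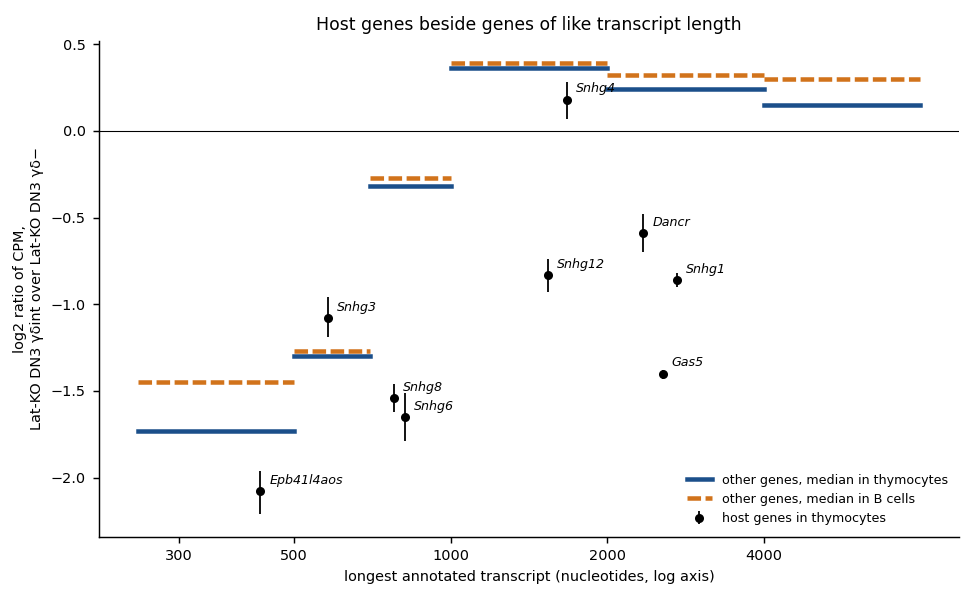
log2 ratio of CPM in Lat-KO DN3 γδint over γδ− against the longest annotated transcript (log axis), with points for the host genes in thymocytes (bars are 95% counting intervals) and horizontal lines for the medians of other genes in each length range (solid for thymocytes, dashed for B cells). Epb41l4aos at 430 nucleotides stands at -2.08 and Snhg4 at 1676 nucleotides at 0.18.

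The list of 19 snoRNP proteins and assembly factors, which holds the C/D core proteins Fbl, Nop56 and Nop58 and the H/ACA core proteins Dkc1, Gar1, Nhp2 and Nop10, was higher in WT DN3b γδ− than in WT DN3a for 19 of 19 genes, with a median of 0.86 and 8 at least 2-fold higher (9.87% of tested genes). The median of all tested genes was -0.11 and that of the 9 hosts -0.35. Under TMM scaling the medians were 1.22 for the snoRNP proteins, 0.01 for the hosts and 0.25 for all tested genes. By that scaling 5 of the 9 hosts were higher, Dancr at 0.03 and Snhg6 at 0.01 among them. The host median still lay below that of all tested genes. Nolc1, a nucleolar chaperone of snoRNPs, went from 91.5 to 305 CPM (1.74) and Gar1 from 73.4 to 209 CPM (1.51). In WT DN4 γδ+ over WT DN3b γδ+ all 19 were lower, with a median of -1.07 and 11 at least 2-fold lower (6.62% of tested genes), beside a median of 0.04 for the hosts (5 of 9 higher) and 0.10 for all genes. Under TMM scaling the host median was -0.26, with 6 of 9 hosts lower, and that of all tested genes was -0.20. There Nop58 went from 361 to 111 CPM (-1.71) and Nolc1 from 181 to 55.1 CPM (-1.71). Over all barcodes, by CPM and under TMM scaling, Snhg3 and Snhg4 had the sign of the snoRNP proteins in both steps and Gas5 and Epb41l4aos the opposite one. For Gas5 and Snhg3 the sign of the host itself did not hold throughout. In the step to WT DN3b γδ− Gas5 was higher in the low cycling class, at 0.27 (0.19 to 0.36), and in the γδ+ step it stood at 0.01 (-0.02 to 0.03) in the high class. Snhg3 less its B cell ratio stood at -0.45 in the step to WT DN3b γδ−, and at -0.21 less the strict B cell ratio. The snoRNP list as a whole was not read within a cycling class or less its B cell ratios, so these host values have no list value of the same kind beside them. The B cell barcodes differed too, Gar1 by 1.44 (0.86 to 2.07) between WT DN3b γδ− and WT DN3a, in the first of which T cell markers reached 42.9% of the thymocyte level.

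Protein-coding hosts had medians of the same sign as the snoRNP proteins, and Nop56, Nop58 and Dkc1 are in both lists. Of the 20 protein-coding hosts 16 were higher in WT DN3b γδ− than in WT DN3a (median 0.69, 6 at least 2-fold higher, against 9.87% of tested genes). Among them Rcc1, which overlaps Snhg3, went from 18.5 to 81.5 CPM (2.14) and Ncl, the nucleolar protein nucleolin, from 800 to 2273 CPM (1.51), while Eif4a2, a translation initiation helicase, stood at -1.23 and Prpf39, a splicing factor, at -0.90. In the B cell barcodes of these libraries Rcc1 stood at 1.93 (0.60 to 3.63) and Ncl at 1.77 (1.57 to 1.97). Eif4a2 stood at -1.19 (-1.47 to -0.92) in them and Prpf39 at -0.03 (-0.74 to 0.71). Of 13 other non-coding hosts listed, 12 were among the features and 8 had a mean of at least 5 CPM. Of the 8, 6 were lower in WT DN3b γδ− than in WT DN3a, with a median of -0.25 (0.11 under TMM scaling) and none at least 2-fold either way. The 8 include Mir17hg (-0.18), which by its name is a host of microRNAs. Zfas1, host of C/D snoRNAs, stood at 257 CPM in WT DN3a, 170 and 93.6 CPM in the DN3b libraries γδ− and γδ+, and 219 CPM in WT DN4 γδ+, the same order as Epb41l4aos over these 4 libraries. Snhg5 stood at 0.37 and Snhg17 at 0.15 in WT DN3b γδ− over WT DN3a.

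**Figure D5:**
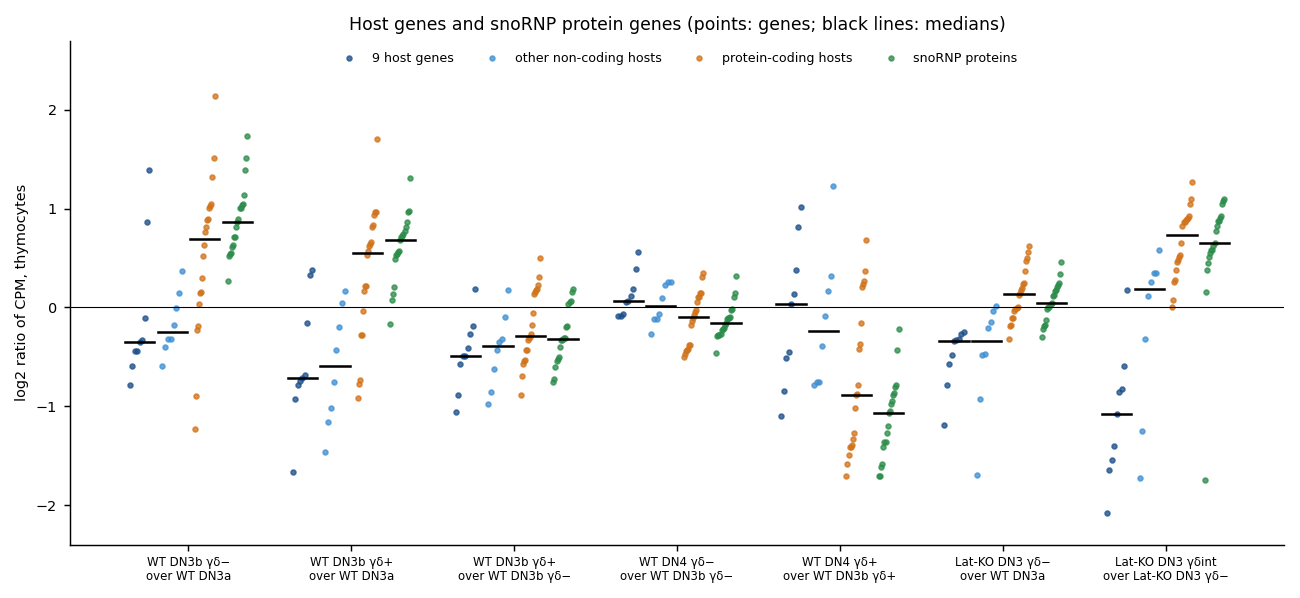
log2 ratio of CPM in thymocytes for the 9 host genes, other non-coding hosts, protein-coding hosts and snoRNP proteins in each comparison (points are genes, black lines medians). In WT DN3b γδ− over WT DN3a the medians are -0.35, -0.25, 0.69 and 0.86, and in WT DN4 γδ+ over WT DN3b γδ+ they are 0.04, -0.24, -0.88 and -1.07.

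Factors of nonsense-mediated decay went both ways. Of 15 decay factors 9 were higher in WT DN3b γδ− than in WT DN3a with a median of 0.08, and 4 of 15 in WT DN3b γδ+ with a median of -0.27 (0.06 under TMM scaling). Smg1, the kinase of the pathway, stood at -0.84 and -1.24 in these comparisons. Its B cell ratios were -0.20 (-0.68 to 0.30) and -0.66 (-1.26 to -0.06). In WT DN3b γδ+ over WT DN3a 2 of the 15 were at least 2-fold higher, Magohb (1.46) and Magoh (1.11) of the exon junction complex, and 2 at least 2-fold lower, shares close to the 10.2% and 15.6% of all tested genes. Magohb stood at 1.07 (0.21 to 1.99) and Magoh at 0.98 (0.62 to 1.36) in B cells. Of 15 genes listed for a 5′ pyrimidine tract, mostly translation factors, 12 were higher in WT DN3b γδ− (median 0.26). Among them were Nap1l1 (1.48) and Npm1 (1.06), which are not translation factors, and Tpt1 stood at -0.90. In B cells Nap1l1 stood at 1.01 (0.77 to 1.26), Npm1 at 1.22 (1.09 to 1.35) and Tpt1 at -0.83 (-0.88 to -0.78). Genes with Rpl or Rps symbols, which take in a few S6 kinases, had a median of 0.00 (0.36 under TMM scaling) there over 88 genes, with 44 higher and 44 lower, and of -1.26 in Lat-KO DN3 γδint over γδ−, with 48 of 88 at least 2-fold lower (3.48% of tested genes). In that comparison 18 of 19 snoRNP proteins were higher (median 0.65), and the exception, Nop10, stood at -1.75 in thymocytes and -1.84 in B cells.

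Across libraries some hosts had like patterns. Over the 6 libraries without Lat-KO DN3 γδint, the Pearson correlation of log2(CPM + 1) was 0.97 for Snhg3 with Snhg4, 0.97 for Snhg1 with Dancr and 0.93 for Gas5 with Epb41l4aos, the 3 highest values among the 9. With it, over 7 libraries, these were 0.85, 0.97 and 0.97. They are not separate pairs, since Snhg12 gave 0.87 with Gas5, 0.84 with Dancr and 0.73 with Snhg1 over the 6 libraries, and Gas5 gave 0.72 with Snhg1 and 0.71 with Dancr. Gas5 with Snhg3 gave -0.12 over 6 and 0.59 over 7 libraries, so that the single library set its sign. Outside the 9, the genes whose pattern was most like the mean of the hosts over 7 libraries were 0610012G03Rik (0.975), Mrps33 (0.973), Psmg4 (0.970), Rbm27 (0.969) and Serf1 (0.967). Over 6 libraries they were Rab33a (0.966), Spats2 (0.964), Mdc1 (0.962), Rps16 (0.957) and Rpl32 (0.951), and no gene was in both sets. These values describe a handful of libraries whose points share depth and composition with the genes themselves.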

How the data were processed

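The deposited files hold UMI counts per gene and barcode, which the authors made with Cell Ranger (4.0.0 per the file headers, 5.0.1 per the labels) from 10x 3′ v3 libraries on mm10 with the edited Trdc reporter as a feature of its own; they were neither scaled nor corrected. The quality filter, as in the study's methods, asked for 200 genes or more and no more than 15% of UMIs from mitochondrial genes; barcodes of neither class were left out. The 141 barcodes that met both the thymocyte and the B cell rule stayed with the thymocytes. Doublets were gated out at the sort and no caller was run here; an alternative left out barcodes over 2 times the median UMIs of their library. UMIs were summed per class and library and scaled to CPM. Intervals are 95% Poisson, Clopper-Pearson or conditional binomial (scipy 1.17.1 with numpy 2.4.6 and pandas 2.3.3 under Python 3.11.15; figures by matplotlib 3.10.9). TMM factors came from edgeR 4.0.16 (R 4.3.3), with no test. The tables of ratios covered all genes with a mean of at least 5 CPM, and a ratio of 2 or more was called. The ratio calculation was checked on simulated counts. Snhg4 has 2 IDs in the files and the non-coding host was used. Genes were named by rule: the 9 members, at most the 2 highest and 2 lowest of a list by ratio, and the 5 genes outside the members most correlated with their mean. Members and lists were chosen with earlier results of these data known. GENCODE vM21 (mm10) gave positions, types and transcript lengths, and a RefSeq table gave the start windows printed for 6 of the 9 genes. It had no row named Snhg6, and windows of members on chromosome 18, where Snhg4 and Epb41l4aos lie, were left out. The study compared groups with cells as replicates, which was not done here.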

Additional observations from a re-analysis of the deposited data

Results flagged for a closer look

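In 4 of the 9 hosts the step from DN3b to DN4 went opposite ways in γδ− and γδ+ thymocytes, with both counting intervals off 0 and the same signs under TMM scaling. How many of all tested genes did so was not counted, so the 4 cannot be read as particular to the hosts. The medians of all tested genes were -0.12 (γδ− step) and 0.10 (γδ+ step), or -0.12 and -0.20 under TMM scaling. With 1 library per group the difference between the steps was not tested. In non-cycling barcodes alone the opposite signs were gone, since the γδ− values there were -0.14, -0.05, -0.68 and 0.60 for Snhg1, Snhg3, Dancr and Epb41l4aos and the γδ+ values -0.80, -0.56, -1.10 and 0.53. Snhg1 stood at 0.19 in the γδ− step and -0.51 in the γδ+ step, Snhg3 at 0.06 and -1.10, Dancr at 0.07 and -0.45, and Epb41l4aos at -0.07 and 1.02. The γδ− values of Snhg3, Dancr and Epb41l4aos are close to 0, so the opposite signs rest mainly on the γδ+ step. Less the B cell ratio, 3 of the 4 had the same sign in both steps, Snhg1 at 0.20 and 0.09, Dancr at 0.67 and 0.27 and Epb41l4aos at 0.01 and 0.84. Less the strict B cell ratio 3 of the 4 kept opposite signs, Snhg3 at 0.33 and -1.09, Dancr at 0.42 and -1.15 and Epb41l4aos at -0.25 and 1.32, while Snhg1 stood at -0.32 and -0.05. These signs of Snhg3, Dancr and Epb41l4aos are not secure, since their strict B cell ratios have wide intervals. Those of Dancr rest on 4 and 10 UMIs in the γδ− step and 4 and 1 in the γδ+ step. Their intervals ran from -2.48 to 1.44 and from -2.64 to 6.32. For Snhg3 the intervals ran from -1.06 to 0.47 and from -1.19 to 1.29. For Epb41l4aos they ran from -0.85 to 1.15 and from -1.53 to 1.04. B cells of the γδ+ libraries stood at -0.60 (-0.97 to -0.24) for Snhg1, -0.61 (-1.26 to 0.03) for Snhg3, -0.72 (-2.09 to 0.57) for Dancr and 0.18 (-0.53 to 0.91) for Epb41l4aos.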

How the results depend on the processing

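The summed log2 ratio of the 9 hosts moved by more than counting error under most alternatives, and no comparison had a replicate library. The comparisons follow in one order: WT DN3b γδ− over WT DN3a (-0.31), WT DN3b γδ+ over WT DN3a (-0.74), WT DN3b γδ+ over WT DN3b γδ− (-0.42), WT DN4 γδ− over WT DN3b γδ− (0.14), WT DN4 γδ+ over WT DN3b γδ+ (0.13), Lat-KO DN3 γδ− over WT DN3a (-0.35), then Lat-KO DN3 γδint over γδ− (-1.19). TMM scaling gave 0.05, -0.41, -0.46, 0.15, -0.17, -0.52 and -1.44. Totals without mitochondrial and Rpl or Rps genes gave -0.40, -0.91, -0.51, 0.18, 0.20, -0.48 and -1.40. Leaving out barcodes over 2 times the median UMIs moved 5 values, to -0.33, -0.76, -0.44, 0.26 (WT DN4 γδ+) and -1.13. Equal weight per barcode moved 6, to -0.28, -0.70, 0.15 (WT DN4 γδ−), 0.17, -0.38 and -1.12. Non-cycling barcodes alone gave 0.33, -0.51, -0.84, -0.06, -0.01, -0.37 and -1.04. Subtracting the B cell ratio gave -0.38, -0.63, -0.25, 0.06, 0.23, -0.02 and -0.18. Asking for 10 T cell marker UMIs moved none. After the data were seen, the high cycling class alone was added, which gave -0.12, -0.55, -0.44, 0.14 (WT DN4 γδ−), -0.12, -0.24 and -1.15, and so was subtraction of the strict B cell ratio, which gave -0.32, -0.79, -0.48, -0.24, 0.31, 0.00 and -0.29. The sign of the summed level was thus kept under all 9 alternatives in WT DN3b γδ+ over either library and in Lat-KO DN3 γδint over γδ−. Of single hosts past 2-fold, Snhg4 in WT DN3b γδ+ over WT DN3b γδ− went to 0.16 less the B cell ratio, and Snhg3 in Lat-KO DN3 γδint over γδ− to 0.19 less the B cell ratio and 0.67 less the strict one, which rests on 2 UMIs. Less the B cell ratio only Epb41l4aos in WT DN3b γδ+ over WT DN3a (-1.59) stayed past 2-fold. Less the strict ratio it stood at -1.70, and Snhg4 in WT DN3b γδ− over WT DN3a at 1.49. Snhg3 and Epb41l4aos in WT DN4 γδ+ then stood at -1.09 and 1.32, and Snhg6 in Lat-KO DN3 γδint at -1.28. The other calls fell under 2-fold by the strict ratio too. The cause was not tested. Over the 63 host ratios, 27 kept their sign under all 9 alternatives.

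Without the filter of 5 CPM, the genes at least 2-fold higher and lower numbered 1610 and 5177 in place of 898 and 1525, 2096 and 4588 in place of 925 and 1417, 2346 and 1513 in place of 460 and 267, 2155 and 942 in place of 59 and 140, 4041 and 1394 in place of 1009 and 602, 1214 and 1042 in place of 308 and 84, and 1147 and 1061 in place of 450 and 317, in the same order. No host is under that filter, so their own calls do not change. Strict B cells held 147 to 718 UMIs of the 9 hosts together a library, which limits the check to differences of the more abundant hosts.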
